A study of Arabidopsis thaliana with 24 samples.

Results

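Heat was compared with control in rosettes of wild-type Arabidopsis thaliana, accession Col-0, in 6 of the 24 RNA-seq libraries of the series. The members are the 3 control libraries and the 3 heat libraries, chosen by their labels, and every gene in the deposited table was described. All plants grew on soil at 22 °C by day and 18 °C by night with 16 h of light, were transplanted at 2 weeks and were treated 14 days later. Control plants stayed at 22 °C. Heat began 3 h after the lights came on, when plants were moved to a second cabinet at 35 °C for 4 h, so that the cabinet and the temperature cannot be told apart. No salt or mannitol watering was recorded for these 2 groups, which are called unwatered where they are set beside the others. The other 18 libraries are plants watered 16 h before sampling with 150 mM NaCl, 200 mM mannitol or both, with or without the same heat. Each group has 3 replicates. The labels do not give the number of plants behind each, so a p-value here reflects the variation among the samples taken, part of which may be technical.

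In plants, as in other eukaryotes, heat unfolds proteins and releases heat shock factors, transcription factors that bind short inverted repeats called heat shock elements in the promoters of chaperone genes. Small heat shock proteins hold unfolding proteins, HSP70 and HSP90 refold them with co-chaperones, and HSP100 pulls apart aggregates. In leaves, warmth is also known to act on photosynthesis, on the membrane lipids and on the circadian clock.

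The 6 libraries held 16.45 to 18.06 M reads, and each detected between 22028 and 22299 genes. Replicates differed by more than counting noise. Their log2 values correlated across genes at 0.9897 to 0.9932 in control, and at 0.9845 to 0.9941 in heat, where heat replicate 2 stood furthest from the others. Leaf genes were abundant in all 6 libraries, with 72311, 77763 and 84297 TPM over 10 leaf markers in control and 48661, 45324 and 48056 TPM in heat, where 6 of the 10 were lower and 1 was higher. The 19 markers of flowers, pollen and seeds summed to 0.929 ± 0.0759 TPM in control and 1.098 ± 0.119 TPM in heat, and the 16 root markers to 19.6 ± 0.835 and 15.6 ± 1.54 TPM (mean ± SD, n = 3 throughout). SCR (10.4 and 8.37 TPM) and SHR (5.53 and 4.57 TPM) made up most of the root sum. AMS, the only marker of flowers, pollen and seeds that was tested, was called higher, at 0.0315 TPM in control and 0.445 TPM in heat. Levels are given in TPM as deposited, a measure of transcript abundance scaled for length and depth that the authors had rescaled in each library. In bulk rosettes, fewer cells of a type and less RNA per cell cannot be told apart.

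Of 20027 genes tested, 12531 (62.6%) differed between heat and control at an adjusted p under 0.05 (edgeR quasi-likelihood test, Benjamini-Hochberg adjustment). Higher in heat were 6346 genes, or 31.7%, and lower were 6185, or 30.9%. A change of at least 2-fold was called for 3672 genes (18.3%), of which 2094 were higher (10.5%) and 1578 lower (7.88%). These shares are the background against which each class and list is read below. The heat libraries lay all above the controls in 31.8% of genes tested and all below them in 33.2%. Groups without overlap were therefore common. Across the genes tested, log2 fold changes had a median of -0.0022. Scaling by library totals alone moved that median to 0.0633 and made the calls 7005 higher and 5418 lower. Where a described list turned or levelled its balance under this scaling, the counts under it are given.

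The annotation deposited with the table sorts genes into MAPMAN classes by function, and 31 top-level classes had at least 20 genes tested. In 11 of them more genes were higher than lower. The class for RNA, which covers transcription, splicing and transcription factors, had 842 of 2268 genes higher and 589 lower, and the class for protein, which covers ribosomes, folding and breakdown, had 1028 of 2857 higher and 766 lower. Stress genes were near the background, with 233 of 720 higher and 208 lower, but 104 of them were at least 2-fold higher. The classes with most genes lower belonged to the chloroplast and to central metabolism. Tetrapyrrole synthesis, the route to chlorophyll and haem, had 29 of 44 genes lower and 7 higher. Photosynthesis had 98 of 159 lower and 26 higher, and the class of TCA and organic acid transformation 39 of 66 lower and 9 higher. C1 metabolism had 18 of 31 lower and 7 higher, and glycolysis 36 of 63 lower and 10 higher. The cell wall class had 160 of 363 genes lower and 64 higher, and secondary metabolism 148 of 329 lower and 78 higher.

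**Figure D1:**
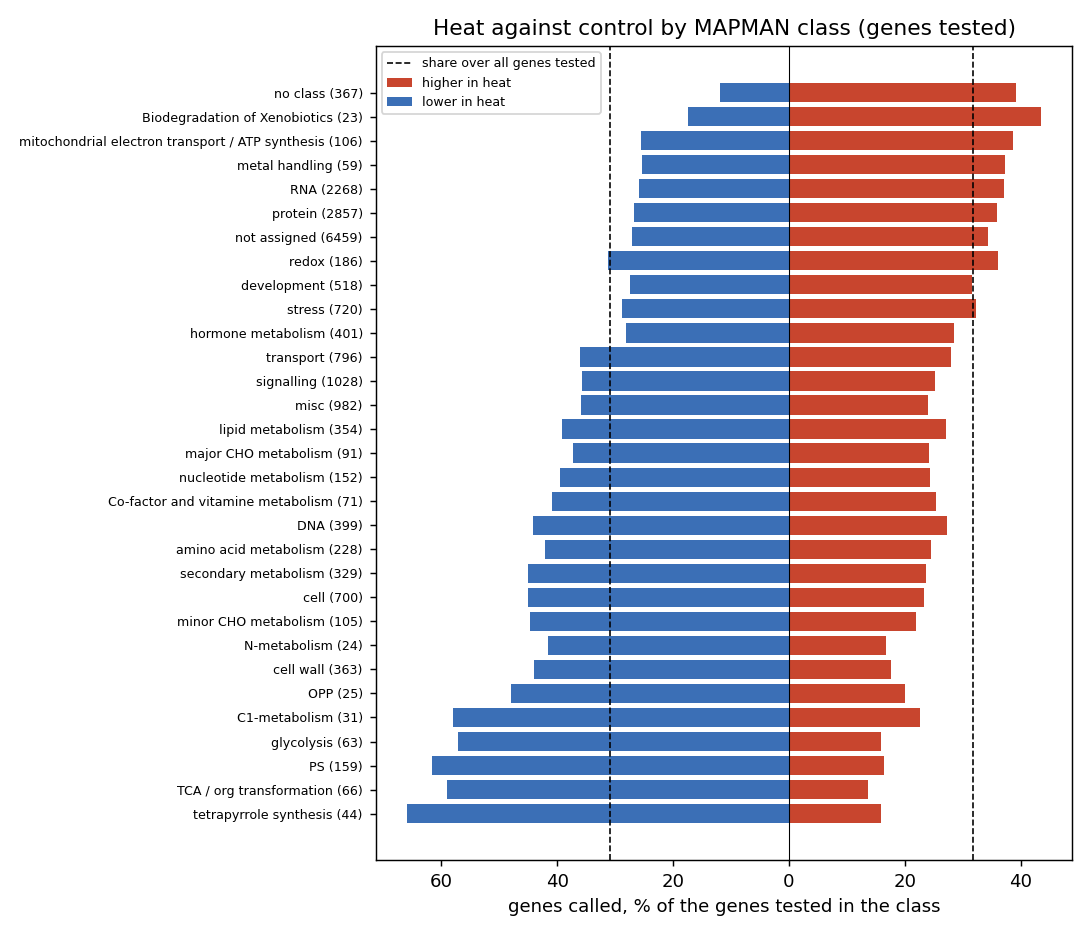
Share of the genes tested in each top-level MAPMAN class (number tested in brackets) called higher (red, right) or lower (blue, left) in heat at an adjusted p under 0.05, in %. The dashed lines give the shares over all genes tested, 31.7% higher and 30.9% lower. Tetrapyrrole synthesis and photosynthesis lie at the bottom, with most of their genes lower.

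The small heat shock proteins were the group with the largest rises. Of 16 members tested, 15 rose, all of them by more than 16-fold, and none fell. Their summed level was 92.8, 92.8 and 84.7 TPM in the control libraries and 8132, 14337 and 10831 TPM in the heat libraries. All 3 heat libraries lay far above all 3 controls, and heat replicate 2 was the highest. HSP17.4, a cytosolic class I protein, stood at 2.79, 3.85 and 3.88 TPM in control and at 1013, 1628 and 1185 TPM in heat (log2 fold change ± SE 8.51 ± 0.28, adjusted p = 1.8e-15). HSP17.6II, a class II protein of the cytosol, went from 1.88, 1.49 and 1.18 TPM to 412, 841 and 555 TPM (8.62 ± 0.36, adjusted p = 4.2e-13). The groups did not overlap for either gene, and heat replicate 2 was again the highest.

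Members directed to organelles rose too. HSP23.6-MITO, which is sent to mitochondria, read 1.05, 0.742 and 1.51 TPM in control and 521, 724 and 629.7 TPM in heat (9.17 ± 0.26, adjusted p = 6.4e-17). HSP21, the chloroplast member, read 0.0677, 0.134 and 0.452 TPM and 64.7, 207 and 126 TPM (9.26 ± 0.85, adjusted p = 6.0e-08). ATHSP22.0, which is directed to the endomembrane system, read 0.834, 0.328 and 0.929 TPM and 299, 719.9 and 643 TPM (9.64 ± 0.75, adjusted p = 7.6e-09), the largest rise of the family. The most abundant member in heat was AT2G29500, a cytosolic class I protein, at 16.04, 16.3 and 12.02 TPM in control and 2519, 3939 and 2927 TPM in heat (7.73 ± 0.20, adjusted p = 4.3e-18). The member that was not called was AT4G21870, at 2.61 ± 0.5705 TPM in control and 4.49 ± 0.827 TPM in heat. Class I proteins are close relatives, so reads may have been split between them, and the level of each is less certain than their sum.

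Heat shock elements were looked for in the 250 bases before the annotated start of each nuclear gene, read from the RefSeq annotation and sequence of assembly TAIR10.1. The element searched had 3 units, GAA and TTC in alternation with NN between them, starting with either unit, so that both strands were covered. It was found in 106 of 27444 promoters, or 0.386%. Among the 53 promoters of genes at least 32-fold higher in heat, 4 held it, or 7.55%. Of the 1978 promoters of genes between 2-fold and 32-fold higher, 19 held it, or 0.961%. Among genes at least 2-fold lower it was found in 4 of 1575 promoters, or 0.254%. The shorter GAANNTTC, which overlaps the longer element and reads the same on both strands, was in 9 of the 53 promoters (17%) against 2621 of all 27444 (9.55%). A match is a description of the letters in this window, not a bound site. By list, exact 3-unit matches were in 2 of 16 small heat shock protein promoters and 3 of 21 heat shock factor promoters. They were in 0 of 15 promoters of the HSP70 family and in 0 of 19 of the list of HSP90, HSP100 and co-chaperones. Windows that overlap another annotated gene were kept, such as those of HSP90.1 and Hop3. A count of 0 therefore holds for exact matches in these windows and does not show that a gene lacks an element.

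The promoters of 3 risen genes with a 3-unit match, of HSP21 with the shorter match alone and of HSP70 with neither are printed here, 5′ to 3′ towards the gene, with the matched bases in capitals (the 3-unit element in the first 3, GAANNTTC in HSP21). They show how near to the gene's start a match lay, and that a strong rise also occurred where these letters were not in the window. That of HSP17.4 is chr3:16984868-16985117 on the minus strand and holds 2 elements, the nearer beginning 18 bases before the start. That of AT1G71000, a DnaJ-domain co-chaperone, is chr1:26770178-26770427 on the minus strand, with 2 overlapping elements of which the nearer begins at 126 bases. That of DREB2A, an AP2-type transcription factor, is chr5:1601955-1602204 on the plus strand, with its element at 164 bases. That of HSP21 is chr4:13819972-13820221 on the minus strand, with its match at 100 bases. That of HSP70 is chr3:3993887-3994136 on the minus strand.
HSP17.4: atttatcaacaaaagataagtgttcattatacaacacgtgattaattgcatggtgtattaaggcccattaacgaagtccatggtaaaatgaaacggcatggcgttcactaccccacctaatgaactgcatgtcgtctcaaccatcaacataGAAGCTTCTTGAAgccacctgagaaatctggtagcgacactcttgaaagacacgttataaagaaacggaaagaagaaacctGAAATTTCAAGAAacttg
AT1G71000: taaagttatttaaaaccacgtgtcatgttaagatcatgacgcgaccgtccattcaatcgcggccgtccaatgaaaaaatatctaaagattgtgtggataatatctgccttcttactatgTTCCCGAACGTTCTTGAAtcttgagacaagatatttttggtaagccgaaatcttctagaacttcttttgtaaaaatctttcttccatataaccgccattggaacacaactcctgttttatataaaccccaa
DREB2A: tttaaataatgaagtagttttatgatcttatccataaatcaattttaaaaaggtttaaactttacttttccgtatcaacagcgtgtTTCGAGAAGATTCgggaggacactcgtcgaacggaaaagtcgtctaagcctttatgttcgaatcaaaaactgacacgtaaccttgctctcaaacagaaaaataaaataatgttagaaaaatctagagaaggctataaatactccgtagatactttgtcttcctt
HSP21: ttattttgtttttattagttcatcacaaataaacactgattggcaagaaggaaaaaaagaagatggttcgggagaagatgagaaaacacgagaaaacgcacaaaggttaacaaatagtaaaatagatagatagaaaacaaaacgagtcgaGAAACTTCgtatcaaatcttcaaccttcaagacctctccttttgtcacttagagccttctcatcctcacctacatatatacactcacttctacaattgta
HSP70: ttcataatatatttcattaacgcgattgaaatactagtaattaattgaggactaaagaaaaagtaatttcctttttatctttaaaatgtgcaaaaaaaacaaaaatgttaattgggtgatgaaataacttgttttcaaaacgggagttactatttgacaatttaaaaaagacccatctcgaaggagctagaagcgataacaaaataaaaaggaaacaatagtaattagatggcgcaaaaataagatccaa

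**Figure D2:**
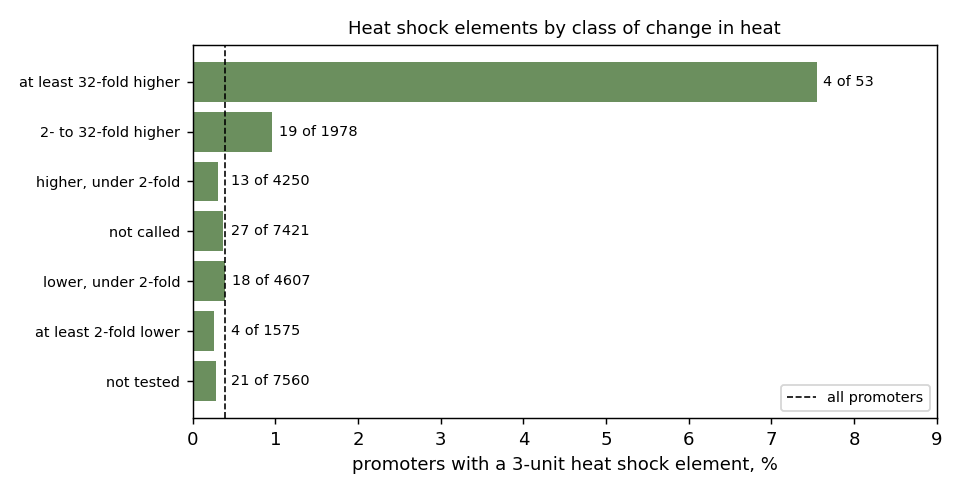
Share of promoters (250 bases before the annotated start) that hold a 3-unit heat shock element, in %, by class of change in heat, with the counts beside the bars. The dashed line is the share over all promoters, 0.386%. Genes at least 32-fold higher stand at 7.55%.

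HSP90, HSP100 and their co-chaperones rose almost without exception, 18 of 19 tested, 16 of them at least 2-fold. Their summed level was 436, 390.3 and 409 TPM in control and 2329, 2428 and 2440.0 TPM in heat, with a narrow spread in both groups. HSP90.1, the inducible cytosolic HSP90, read 2.13, 2.89 and 2.84 TPM in control and 299, 348 and 336 TPM in heat (6.99 ± 0.21, adjusted p = 6.4e-17). Its constitutive relatives HSP81-2 and HSP81-3 rose too, with log2 fold changes of 2.19 and 1.52, and the chloroplast HSP90 CR88 rose from 31.03 to 251 TPM (3.04). Hop3, which links HSP70 to HSP90, read 0.757, 0.736 and 0.637 TPM and 139, 169 and 149 TPM (7.75 ± 0.16, adjusted p = 7.4e-21). HSP101, the cytosolic disaggregase needed for acquired heat tolerance, rose from 2.94 ± 0.496 to 65.2 ± 3.19 TPM (4.49). The mitochondrial CLPB4 rose as well, by 2.36 on the log2 scale, while the chloroplast CLPB3 stood at 28.6 TPM in control and 27.9 TPM in heat and was not called. HSA32, a protein of long-term acquired tolerance, rose by 4.83, and the FKBP-type isomerase AT5G48570 (ROF2), a partner of HSP90, by 7.07.

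In the HSP70 family 14 of 15 members rose and 1 fell, and the sum went from 970.0 ± 58.3 to 3105 ± 65.1 TPM. The gene named HSP70 (AT3G12580) read 3.897, 4.01 and 2.93 TPM in control and 693, 767 and 746 TPM in heat (7.69 ± 0.33, adjusted p = 8.1e-13). The constitutive HSC70-1 was the most abundant member in control and rose from 467 to 877 TPM (0.93). Members of the endoplasmic reticulum moved in opposite directions. BIP1 and BIP2, near-identical genes whose reads can be shared, rose from 86.2 and 54.3 to 410.4 and 297 TPM. BIP3, the member known as a marker of endoplasmic reticulum stress, was low in control, at 2.49, 1.21 and 0.702 TPM, and lower still in heat, at 0.247, 0.279 and 0.231 TPM (-2.52 ± 0.39, adjusted p = 1.1e-05). Across the unfolded protein response list 18 of 25 genes rose and 2 fell. The 25 include AT4G36290, which was matched by its symbol CRT1, is not a calreticulin and was not called. Among the genes that rose were the disulfide isomerases PDIL2-2, from 7.73 ± 2.02 to 62.7 ± 4.05 TPM (3.04), and PDIL2-3 (2.04), and the lectin chaperone CNX1 (2.04). The call of BZIP60, whose messenger is spliced under such stress (0.35), was lost without control replicate 3 (adjusted p = 0.106) or heat replicate 2 (adjusted p = 0.185). The other gene that fell, IRE1-1, fell by 0.21, a call lost under library totals (adjusted p = 0.0894).

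More heat shock factors rose than fell, 10 against 2 of 18 tested. HSFA2, the amplifier of the response, read 0.959, 0.757 and 0.888 TPM in control and 90.96, 95.1 and 90.03 TPM in heat (6.74 ± 0.21, adjusted p = 1.9e-16), with no overlap and little spread. HSFA3 (4.07), HSFA7A (1.87), and the repressor-type AT-HSFB2B (2.92), HSFB2A (2.28) and HSFB1 (HSF4 in the reference, 1.53) rose too. Of the class A1 factors, the constitutive regulators of the response, HSFA1D rose by 0.81, HSFA1B (HSF3) fell by 0.52, and HSFA1A (HSF1) stood at 2.91 and 2.76 TPM and was not called. Of 11 other regulators of heat responses, 7 rose and 1 fell. MBF1C, a coactivator needed for heat tolerance, read 20.06, 20.6 and 22.7 TPM and 779, 938 and 825 TPM (5.34 ± 0.16, adjusted p = 2.0e-17). DREB2A, which acts upstream of HSFA3, read 1.28, 1.94 and 1.196 TPM and 28.2, 48.2 and 38.6 TPM (4.71 ± 0.31, adjusted p = 2.2e-10).

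**Figure D3:**
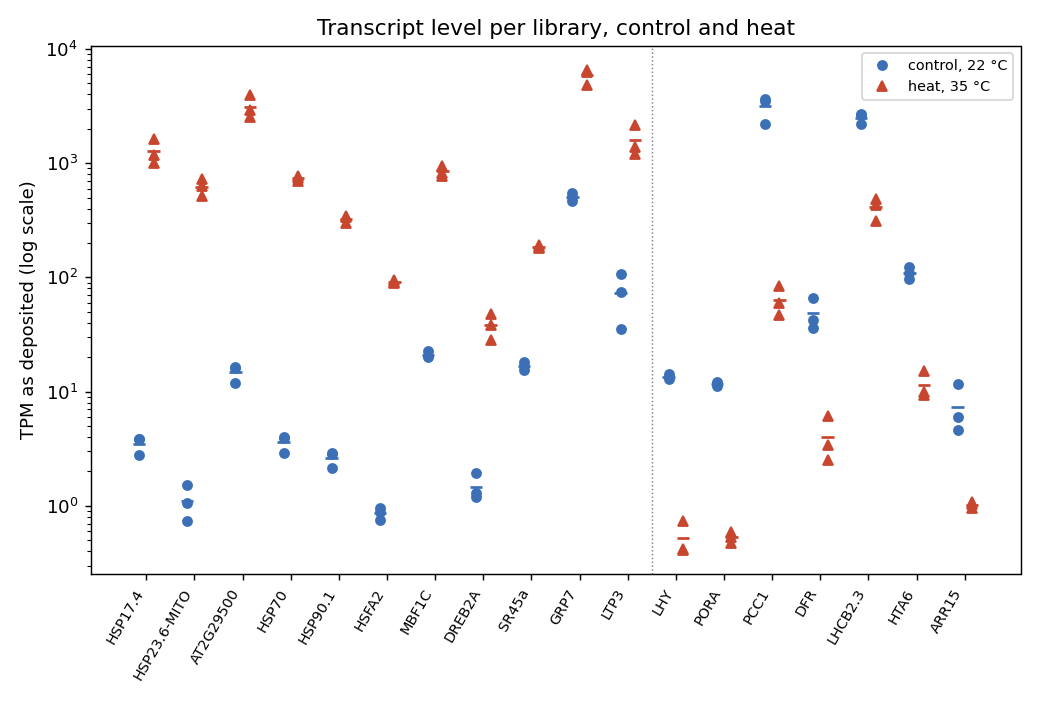
TPM as deposited on a log scale for 18 genes in each control library (blue circles) and heat library (red triangles), with short lines for the means (n = 3). The 11 genes left of the dotted line are higher in heat and the 7 right of it are lower. In every gene shown the groups are separate. The rule for the largest rises and falls required this, so for genes named by it the separation was fixed by selection.

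Outside the chaperones, the 10 largest rises by the rule for named genes held 2 genes without a control read. AT4G19430, a protein of unknown function, had no read in any control library and 32.3, 57.4 and 44 TPM in heat, at least 410.5-fold higher taking 3 reads over the control group as the floor. AT5G38650, which is annotated as a UMP1-type proteasome maturation factor, had no control read and 14.6, 38.1 and 20.8 TPM in heat, at least 185.4-fold higher. APX2, a cytosolic ascorbate peroxidase that removes hydrogen peroxide, had 2 control reads in all and 16.9, 33.9 and 23.7 TPM in heat, a ratio of 645.4 with a 95% counting interval from 178.3 to 5335. That interval covers counting noise alone and not the variation among replicates. The fitted log2 fold change of APX2 was 9.02. The proteasome itself went the other way, with 29 of 60 subunit and assembly genes lower and 12 higher. AT5G25450, a subunit of the mitochondrial cytochrome c reductase, rose from 0.768 ± 0.245 to 173 ± 39.5 TPM (7.77).

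Genes that handle RNA rose more often than they fell. Of the 137 second-level classes with at least 10 genes tested, RNA transcription had the highest share called higher, 48 of 80, with 5 lower, and RNA processing ranked among the first 6, with 139 of 270 higher and 42 lower. RPC14 and NRPC1, subunits of RNA polymerases, rose by 1.89 and 1.66, and SCA3, the plastid phage-type RNA polymerase, by 1.73. Within RNA processing, 37 of 59 splicing genes rose and 6 fell. SR proteins, which choose splice sites, had 12 of 20 members higher and 2 lower. SR45a read 18.2, 16.7 and 15.3 TPM in control and 180.5, 186 and 191 TPM in heat (3.49 ± 0.09, adjusted p = 7.3e-19), with no overlap. SR30 rose from 49.8 ± 4.39 to 255 ± 19.9 TPM (2.37), and RS31a and SR34b by 2.41 and 2.19. Counts are per gene model, so they do not show which splice forms rose.

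In the ribosome biogenesis class 55 of 76 genes rose, 23 of them at least 2-fold, and 7 fell (median 0.79). Among them AT4G26600, an rRNA methyltransferase-like gene, rose from 1.75 ± 0.328 to 7.97 ± 0.615 TPM (2.2). Of 422 tested genes for pentatricopeptide repeat proteins, which bind, edit and stabilise transcripts of chloroplasts and mitochondria, 242 rose and 50 fell, and 104 rose at least 2-fold (median 0.54). MEF8S, an editing factor of mitochondria, rose from 1.74 ± 0.254 to 19.9 ± 2.06 TPM (3.53). The mTERF family, also proteins of organelle gene expression, had 16 of 31 genes higher and 8 lower. Mitochondrial protein import had 18 of 32 higher and 4 lower, led by TIM17-1 (3.09).

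Transcripts of genes encoded in the mitochondrion themselves were higher in heat. Of 61 tested, 60 were called higher and none lower (median 3.91), and their summed level was 42.5, 59.3 and 53.05 TPM in control and 407, 634 and 597 TPM in heat. The groups did not overlap. These are few reads, 1236 in the 3 controls against 18447 in the 3 heat libraries. Among the genes, 5 had no control read and 10 had between 1 and 3, so that their fitted changes are uncertain. For the 15 genes with more than 30 control reads the median was 2.49. The libraries were made with a poly(A) kit, and such kits recover few mitochondrial transcripts, so the values are shares among polyadenylated RNA, and what that selection contributed was not tested. Over all 24 libraries the sum ran from 42.46 to 134.8 TPM in the 12 unheated and from 292.9 to 1092 TPM in the 12 heated ones, again without overlap. Of 45 tested genes of the mitochondrial insertion on chromosome 2 (AT2G076 to AT2G077), 39 were called higher and 2 lower (median 3.52), and their reads cannot be told apart from those of near-identical mitochondrial copies. Of 81 chloroplast-encoded genes 4 were called higher and 3 lower, with a median of -0.11. Their summed level was nonetheless higher, at 1112, 1490.4 and 1559 TPM in control and 1961, 2165 and 2200.1 TPM in heat, without overlap (exact permutation test, two-sided p = 0.1, the smallest that 3 against 3 libraries allow).

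**Figure D4:**
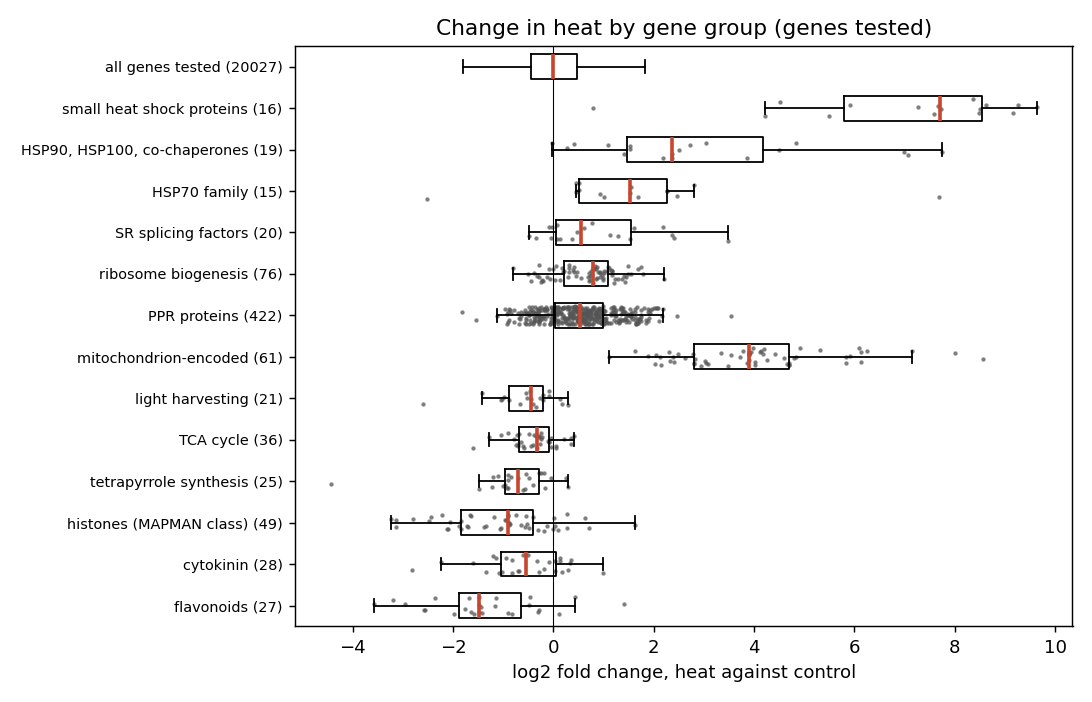
log2 fold change of each gene tested in 13 groups and, at the top, in all genes (boxes: quartiles, red line: median, whiskers and dots: the remaining genes). Small heat shock proteins (median 7.70) and mitochondrion-encoded genes (median 3.91) lie furthest right, and flavonoid genes (median -1.48) furthest left.

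Photosynthesis genes fell broadly but mostly by less than 2-fold. Of 21 light-harvesting genes 15 fell and none rose, and their summed level was 119160.0, 128541 and 137245 TPM in control and 93039, 90762 and 95388 TPM in heat. CAB1, the most abundant antenna gene in control, read 22927, 24427 and 26173 TPM in control and 12162, 11722 and 11882 TPM in heat (-1.02 ± 0.08, adjusted p = 7.3e-11). LHCB2.3 fell furthest, from 2198, 2650.3 and 2686 TPM to 487, 314 and 435 TPM (-2.59 ± 0.14, adjusted p = 2.6e-13). CAB1 and its neighbours are near-identical, so their separate levels are uncertain, and under scaling by library totals 13 of the 21 were lower and 2 higher. Of 24 nuclear photosystem subunit genes 17 fell and 2 rose, none by as much as 2-fold.

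Carbon fixation genes were lower too, 12 of 19 in the Calvin cycle list, with 4 higher. RBCS1A, the main small subunit of Rubisco, read 22596, 24268 and 25717 TPM in control and 11454, 10103 and 10781 TPM in heat (-1.15 ± 0.12, adjusted p = 2.1e-08). Of its relatives, RBCS3B rose from 4655 ± 541 to 6882 ± 356 TPM (0.58), while RBCS1B was not called. The call of RBCS2B (0.43) was lost without any of the control libraries, heat replicate 1 or heat replicate 3 (adjusted p = 0.0624 to 0.123). These 4 genes are close copies, so a shift of reads between them cannot be told apart from a change of each. GAPA-2 (-1.6), the plastid aldolase FBA2 (-1.08) and sedoheptulose bisphosphatase SBPASE (-1.08) fell. Rubisco activase, RCA, known as a heat-sensitive step, stood at 3309 ± 398 and 2846 ± 208 TPM and was not called. In photorespiration, the salvage of the oxygenation product of Rubisco, 14 of 22 genes fell and 4 rose. GLDP2 and GLDP1, P-proteins of glycine decarboxylase, fell by 1.58 and 1.03. The call of glycolate oxidase GOX1 (0.22) was lost without control replicate 1 or 2 or heat replicate 3 (adjusted p = 0.0541 to 0.0763).

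The route to chlorophyll was lower along nearly its whole length. Of 25 tetrapyrrole genes 21 fell and 2 rose. PORA, the protochlorophyllide reductase typical of dark-grown seedlings, read 12.1, 11.2 and 11.97 TPM in control and 0.534, 0.587 and 0.475 TPM in heat (-4.44 ± 0.25, adjusted p = 2.0e-12). The light-grown form PORB fell from 1071 ± 82.7 to 649 ± 91.2 TPM (-0.71), and PORC (POR C) was not called. HEMA1, the entry step, fell by 0.60, and GUN5, a magnesium chelatase subunit, by 0.91. Of 16 carotenoid genes 11 fell and 3 rose, among them NPQ1, the violaxanthin de-epoxidase that protects against excess light (-1.18). Among 21 genes of chlorophyll breakdown and senescence 7 rose, near the background of 31.7%, and 2 fell. Those that rose included the chlorophyll b reductase NYC1 (1.26) and NAC6, also called ORE1 (2.0).

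Central carbon metabolism was lower in heat in several compartments. The second-level TCA class, a part of the top-level class given above, had 24 of 36 genes lower and 4 higher. That was the second-highest share lower of the 137 second-level classes. Within this TCA class 10 of 12 genes of pyruvate dehydrogenase fell and none rose. FUM2, the cytosolic fumarase behind the daytime fumarate pool, read 259, 303 and 274 TPM in control and 99.1, 76.5 and 96.8 TPM in heat (-1.6 ± 0.10, adjusted p = 5.1e-12). The plastid pyruvate dehydrogenase subunit PDH-E1 ALPHA fell from 83.6 ± 7.65 to 34.2 ± 3.26 TPM (-1.27). Plastid glycolysis had 9 of 14 genes lower and 2 higher (7 and 2 under library totals), with pyruvate kinase PKP-BETA1 at -0.61. The class of other organic acid reactions had 13 of 21 lower and 3 higher, with citrate lyase subunit ACLB-2 at -1.07. The MAPMAN class named for metabolite transporters of the envelope membrane had 13 of 21 genes lower and 1 higher, led by the phosphoenolpyruvate carrier PPT2 (-2.05). That class also holds carriers of other membranes, such as the mitochondrial AAC1, which was not called, so the count is not one of chloroplast carriers alone. The callose class, whose enzymes make a wall glucan, had 9 of 13 lower and 3 higher, with GSL1 at -1.13 and GSL11 at 1.08.

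Sugar handling showed both directions. Of 44 genes of sucrose and trehalose metabolism and sugar transport 22 fell and 9 rose. SUC2, the phloem loader, fell from 103 ± 6.32 to 51.1 ± 3.18 TPM (-0.99). SWEET12, which exports sucrose towards the phloem, rose instead, from 11.8, 12.5 and 10.49 TPM to 57.5, 54.1 and 56.9 TPM (2.29 ± 0.17, adjusted p = 2.7e-10), and SWEET11 rose by 1.01. SAG29 (SWEET15) rose by 3.27, from 1.91, 0.536 and 0 TPM in control, a wide spread. In starch metabolism 11 of 31 rose and 10 fell, near the background in both directions. APL1, a subunit of the first committed step of synthesis, fell by 1.42, while AMY2 (1.39) and the glucan water dikinase SEX1 (1.2), which act in breakdown, rose. In raffinose and proline metabolism, a list of the synthesis, breakdown and transport of compatible solutes, 4 of 12 rose and 5 fell (5 and 5 under library totals). GolS1, the heat-inducible galactinol synthase, rose from 56.6, 61.96 and 58.9 TPM to 232, 264 and 226 TPM (2.04 ± 0.13, adjusted p = 4.3e-12), and the cold-type GolS3 fell from 8.51, 12.8 and 11.9 TPM to 1.58, 2.06 and 1.47 TPM (-2.68 ± 0.20, adjusted p = 7.0e-11). P5CS1, the rate-limiting step of proline synthesis, fell from 176 ± 22.8 to 44.7 ± 10.09 TPM (-1.96), while P5CR, the next step, rose by 2.08. ERD5, the proline dehydrogenase of breakdown, fell as well (-1.9).

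Flavonoid and anthocyanin synthesis fell at nearly every step. Of 27 genes tested 21 fell, 18 of them at least 2-fold, and 1 rose, and the median log2 fold change was -1.48. DFR, which commits the pathway to anthocyanins, read 42.8, 65.9 and 36.3 TPM in control and 6.12, 3.44 and 2.51 TPM in heat (-3.57 ± 0.38, adjusted p = 3.4e-07). LDOX, the step after it, read 43.01, 66.4 and 43.5 TPM and 7.68, 4.46 and 4.35 TPM (-3.2 ± 0.33, adjusted p = 2.3e-07). Control replicate 2 was the highest control for both, and the groups did not overlap. Chalcone synthase, TT4, fell from 102 ± 26.7 to 37.6 ± 3.497 TPM (-1.43), and the shared entry enzymes PAL1 and PAL2 by 1.76 and 1.48. Of the regulators, PAP1 (AT1G56650), an activating MYB factor, stood at 30.9 ± 8.77 and 33.2 ± 3.97 TPM and was not called, nor were TT8, GL3 and EGL3. MYBL2, a repressor of the pathway, fell by 1.58, and MYB111, a flavonol activator, rose by 1.41. In lignin synthesis, which shares the entry steps, 24 of 40 genes fell and 7 rose, with cinnamyl alcohol dehydrogenase ATCAD4 at -1.86.

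Sulfur assimilation had 16 of 26 genes lower and 4 higher, among them APR3 and APR1, the reductases that control the pathway (-1.21 and -1.11). Glucosinolate synthesis was mixed, with 12 of 34 lower and 9 higher (8 and 10 under library totals), as was nitrogen uptake and assimilation, with 11 of 32 lower and 7 higher. Polyamine synthesis had 7 of 13 higher and 3 lower. There ADC2 rose by 1.13, while ADC1, its sister arginine decarboxylase, fell by 1.42. SAMDC, the most abundant gene of the class in both groups, fell from 610 ± 23.5 to 204 ± 11.9 TPM (-1.56).

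In the MAPMAN histone class 38 of 49 genes fell, 22 of them at least 2-fold, and 3 rose, and the summed level was 6138, 6065 and 6628 TPM in control and 3348, 3286 and 3095 TPM in heat. HTA6, an H2A histone, read 109, 97.4 and 122 TPM in control and 15.3, 9.37 and 9.86 TPM in heat (-3.24 ± 0.18, adjusted p = 2.2e-12). AT5G10390 and AT1G09200, H3 histones, fell by 3.14 and 2.79, though histone genes are close copies that can share reads. Of 75 cell cycle genes 33 fell, 14 rose and 28 were not called. CYCA3;2 and CYCA3;1, cyclins of DNA replication, fell by 2.09 and 1.93, while AT1G07500 (SMR5), a stress-inducible inhibitor of cyclin-dependent kinases, rose from 4.89 ± 0.879 to 21.2 ± 7.23 TPM (2.09). Markers of dividing tissue, several of them cyclins or cyclin-dependent kinases and so not independent of the cell cycle genes, mostly fell. Of 7 tested 5 fell and none rose, and STM, a meristem gene, stood at 3.38 and 3.36 TPM and was not called. The 9 markers summed to 46.9, 47.2 and 56.6 TPM in control and 34.4, 27.3 and 30.6 TPM in heat. Their part in the fall of the histones was not tested.

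Several families of cell wall genes fell more often than they rose. Of 73 genes for cellulose synthases, their relatives and arabinogalactan proteins 41 fell and 12 rose. ATCSLA15, a glucomannan synthase-like gene, read 6.76, 9.65 and 6.91 TPM in control and 0.819, 0.336 and 0.504 TPM in heat (-3.79 ± 0.30, adjusted p = 8.0e-10). Of 22 expansins, which loosen walls, 9 fell and 2 rose, among them EXPA1 (-1.58). Xyloglucan endotransglucosylases had 4 of 25 higher and 3 lower, with XTH20 at 2.97, 3.25 and 2.104 TPM in control and 0.0486, 0.286 and 0.049 TPM in heat (-4.35 ± 0.48, adjusted p = 5.6e-08) and XTH7 rising by 1.27.

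Clock genes moved in opposite directions, with 16 of 26 higher and 7 lower. All groups were sampled at midday, so these are levels at 1 time of day. LHY, a morning factor, read 13.4, 14.3 and 12.9 TPM in control and 0.743, 0.421 and 0.411 TPM in heat (-4.66 ± 0.22, adjusted p = 1.4e-13). Its close partner CCA1 rose, from 24.3 ± 2.99 to 43.1 ± 3.02 TPM (0.85). Several evening genes were higher. LUX (PCL1 in the reference), of the evening complex, read 2.03, 2.15 and 2.54 TPM and 14.6, 22.1 and 19.8 TPM (3.09 ± 0.18, adjusted p = 2.3e-12), its relative BOA rose by 3.88, and ELF4 and ELF3 of the same complex rose by 1.32 and 1.12. The pseudo-response regulators PRR3 (3.2), PRR5 (0.99) and TOC1 (1.85) rose, and PRR9 was not called. GRP7, a clock-controlled RNA-binding protein, read 548, 467 and 503 TPM in control and 4821, 6562 and 6268 TPM in heat (3.55 ± 0.10, adjusted p = 6.9e-18). It was among the 10 genes with the largest gain in TPM. The call for ELF4 was lost without control replicate 1 (adjusted p = 0.069).

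Light and temperature signalling had 13 of 30 genes lower and 8 higher (11 and 9 under library totals). PIF3, a growth-promoting bHLH factor, read 6.38, 7.53 and 5.96 TPM in control and 31.4, 33.7 and 33.8 TPM in heat (2.33 ± 0.14, adjusted p = 3.9e-12). PIF4, the main factor of warm-temperature growth, stood at 100.2 ± 8.94 and 94.6 ± 9.58 TPM and was not called, and PIF7 fell by 0.79. The photoreceptor gene PHYB was not called. Among B-box factors 13 of 25 rose and 7 fell, led by COL9 (2.8) and BBX8 (2.63).

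Hormone pathways differed from each other. Cytokinin genes fell, 15 of 28, with 2 higher. ARR15, a type-A response regulator that cytokinin induces, read 5.95, 4.57 and 11.7 TPM in control and 0.954, 1.08 and 1.04 TPM in heat (-2.82 ± 0.39, adjusted p = 2.0e-06), and ARR7 read 23.1, 17.3 and 30.8 TPM and 4.697, 4.096 and 6.005 TPM (-2.25 ± 0.40, adjusted p = 9.6e-05). Jasmonate genes were lower in 14 of 32 and higher in 2, with the synthesis enzymes LOX2 (-1.23) and AOC1 (-1.27) and the repressor JAZ3 (-1.58) among those that fell. PDF1.2, a defensin induced by jasmonate, spread from 1891, 573 and 203 TPM in control, and its call was lost without control replicate 1 (adjusted p = 0.195), heat replicate 2 (0.0848) or heat replicate 3 (0.107).

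Ethylene and abscisic acid genes rose more often than they fell. In ethylene 9 of 20 rose and 3 fell. ETR2, a receptor, read 1.44, 0.952 and 0.659 TPM in control and 9.08, 8.197 and 10.04 TPM in heat (3.166 ± 0.18, adjusted p = 3.1e-12), and ERS2, another receptor, rose by 2.22 and CTR1, the kinase the receptors hold, by 1.05. In abscisic acid 16 of 32 rose and 5 fell. NCED3, the rate-limiting synthesis step, rose by 1.19, and the negative regulators HAI1 (2.43) and ABI1 (1.27) and the factor ABF3 (1.2) rose as well, while ABA1, an early synthesis step, fell by 1.21.

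Gibberellin genes were higher in 9 of 23 and lower in 5. GASA1, a gibberellin-responsive peptide, read 354, 167 and 203 TPM in control and 866, 1457 and 1434 TPM in heat (2.39 ± 0.47, adjusted p = 3.2e-04), and ATGA2OX1, which inactivates gibberellin, fell by 2.76. Of 55 SAUR genes, small auxin-induced transcripts, 19 rose and 3 fell. Auxin synthesis, transport and conjugation had 8 of 25 in each direction (8 higher and 7 lower under library totals), near the background. YUC9, a synthesis enzyme, rose by 1.84. The Aux/IAA repressors, also near it, had 7 of 24 in each direction (7 higher and 5 lower under library totals), with IAA29 up by 1.35. In brassinosteroids 5 of 22 rose and 2 fell, both shares below the background of 31.7% higher and 30.9% lower. There BEE3 and BEE1, early-response bHLH factors, rose by 2.69 and 1.94.

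Transcription factor families are given as the deposited annotation names them. Genes given as examples of these families and of MAPMAN classes, and genes named as not called, were chosen after their values were seen. Of 104 AP2-EREBP genes 43 rose (41.3%) and 22 fell, and of 53 bZIP genes 24 rose (45.3%) and 8 fell. NAC genes were near the background of 31.7% higher, with 24 of 72 higher (33.3%) and 15 lower. EEL, a bZIP factor of the abscisic acid response, rose by 2.11. The next 4 families are examples with more genes lower than higher. TCP factors, regulators of leaf growth, had 11 of 20 lower and 2 higher (8 and 4 under library totals), with TCP4 at -1.04. Auxin response factors had 8 of 16 lower and 1 higher, with ARF4 at -0.94, and RWP-RK factors, known from nitrate responses, 6 of 10 lower and none higher. WRKY factors, many of them regulators of immunity, had 27 of 60 lower and 12 higher. The largest WRKY falls were WRKY54 (-2.94) and WRKY38 (-2.76).

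Of 29 genes of salicylic acid and immunity 17 fell and 3 rose. PR1, the classic salicylic acid marker, read 655, 214 and 102 TPM in control and 81.5, 50.4 and 25.7 TPM in heat (-2.61 ± 0.69, adjusted p = 0.0033). Control replicate 1 was the highest library by far, and the lowest control lay just above the highest heat library. PBS3 (-2.44), the synthesis enzyme ICS1 (EDS16 in the reference, -1.49) and the activator SARD1 (-2.0) fell. PCC1, a small pathogen- and clock-regulated protein, showed the largest fall by the rule for named genes, from 3507, 3687 and 2225 TPM to 84.4, 59.5 and 46.8 TPM (-5.63 ± 0.42, adjusted p = 2.9e-09). Its neighbour AT3G22235, which shares similar sequence and may share reads, fell from 7238, 7474 and 4655 TPM to 563, 467 and 413 TPM (-3.76 ± 0.39, adjusted p = 2.7e-07). AIG1 and PCR1 also fell, and there control replicate 1 was the highest, at 21.7, 6.32 and 3.07 TPM for AIG1 and 113, 35.1 and 17.3 TPM for PCR1. The cysteine-rich receptor-like kinases had 15 of 39 lower and 8 higher, led by CRK28 (-2.79) and CRK21 (-2.7). Pattern receptors and early signalling were near the background of 30.9% lower, with 7 of 23 lower and 4 higher. Among them MPK3, a kinase of early immune signalling, fell by 0.94.

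Of 26 dehydration and cold response genes 15 rose and 1 fell. KIN2, a small hydrophilic protein, read 3187, 3792 and 3446 TPM in control and 7678, 12024 and 9337 TPM in heat (1.46 ± 0.15, adjusted p = 1.6e-08), the largest gain in TPM of any gene called. The lipid transfer proteins LTP4 and LTP3, neighbouring genes of similar sequence, rose from 11.4, 7.42 and 3.41 TPM to 993, 1689 and 1070.0 TPM (7.38 ± 0.90, adjusted p = 2.0e-06) and from 108, 74.1 and 35.6 TPM to 1201, 2175 and 1378 TPM (4.45 ± 0.49, adjusted p = 5.6e-07). COR47 (1.98) and ERD10 (1.49), both dehydrins, rose, while COR15A, a cold-induced chloroplast protein, was not called. The cold regulators CBF2, CBF1 and DREB1A rose by 1.27, 1.18 and 0.67 from control levels of 2.69, 1.59 and 8.16 TPM, with overlapping groups for CBF1, whose call was lost without heat replicate 2 (adjusted p = 0.0571). Of 22 aquaporins 12 rose and 3 fell. RD28, a plasma membrane aquaporin (PIP2;3), read 27.5, 22.5 and 22.4 TPM and 233, 309 and 253 TPM (3.47 ± 0.16, adjusted p = 1.4e-13), and GAMMA-TIP, a vacuolar one, rose by 1.89. The MAPMAN class of lipid transfer proteins as a whole had 7 of 13 higher and 1 lower, with a sum of 5797 ± 128 TPM in control and 15413 ± 1590.4 TPM in heat.

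Scavengers of reactive oxygen rose in 19 of 36 cases and fell in 5. Beside APX2, the abundant APX1 rose from 512 ± 62.9 to 1339.7 ± 468 TPM (1.4) and the superoxide dismutase FSD1 from 514 ± 37.7 to 1348 ± 164 TPM (1.41). The class of dismutases and catalases had 6 of 11 higher and 1 lower. In the ferritins, which store iron, heat replicate 2 stood apart. FER1 read 219, 200.2 and 145 TPM in control and 566, 1708 and 791 TPM in heat (2.46 ± 0.49, adjusted p = 3.3e-04), and FER3 read 23.9, 19.7 and 20.8 TPM and 54.4, 174 and 79.6 TPM (2.27 ± 0.39, adjusted p = 7.6e-05). Heat replicate 2 was more than 2 times the other heat libraries for both genes, although these too lay above control. Glutathione S-transferases had 16 of 44 lower and 10 higher, and metallothioneins and metal homeostasis 12 of 34 lower and 9 higher. The alternative NAD(P)H dehydrogenases and uncoupling proteins had 6 of 11 lower and 2 higher, with NDA1 at -1.97. The cytochrome c reductase class had 6 of 11 higher and 2 lower, 2 of the risen genes being AT5G25450 and AT2G07727, the latter a copy of a mitochondrial gene.

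Membrane lipid and wax genes fell in 16 of 26 cases and rose in 4. FAD8, a chloroplast desaturase that is unstable at warm temperature, read 24.3, 22.2 and 26.02 TPM in control and 7.602, 5.35 and 6.11 TPM in heat (-1.91 ± 0.18, adjusted p = 1.1e-08), and its relatives FAD3, FAD6 and FAD5 fell by 0.52 to 0.62. FAD2, the desaturase of the endoplasmic reticulum, rose from 268 ± 11.9 to 544 ± 50.3 TPM (1.04). The wax synthesis gene CER1 (1.49) and the elongase KCS2 (1.84) rose, while the acyl-CoA synthetases LACS1 and LACS2 fell by 1.49 and 1.08. Calmodulins and their relatives had 7 of 18 lower and 4 higher. Genes of chromatin silencing were near the background, with 11 of 37 in each direction (13 higher and 8 lower under library totals). Markers of guard cells and epidermis had 4 of 13 lower and 3 higher (4 and 4 under library totals), and vascular markers 6 of 14 lower and 5 higher (5 and 6).

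Ranked by TPM gained or lost, the list was made of abundant transcripts. The largest losses were those of RBCS1A, CAB1 and AT3G22235. PCC1 was also among the 10 largest, and the other 6 were antenna or photosystem genes, among them PSAO (7665, 8102 and 8595 TPM in control, 5006, 4912 and 5062 TPM in heat) and LHCB3 (7745, 8079 and 8856 and 5555, 5528 and 5693 TPM). Among the 10 largest gains AT2G29500 was the only heat shock protein. The others were KIN2, GRP7, RBCS3B, the metallothioneins MT1A and MT3, the lipid transfer protein LP1, AT4G23670, TCTP and AT5G54940. LP1 read 3539, 3704 and 3450.2 TPM in control and 8153, 8936 and 8598 TPM in heat (1.27 ± 0.07, adjusted p = 2.0e-13). TCTP, a growth-related protein, read 1124, 1079 and 1148 TPM and 2668, 2953 and 2905 TPM (1.36 ± 0.08, adjusted p = 1.9e-12). AT5G54940, annotated as a SUI1-type initiation factor, read 877, 806 and 775 TPM and 2457, 3151 and 2625 TPM (1.75 ± 0.12, adjusted p = 2.4e-11).

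The same heat was given to plants watered with salt, mannitol or both, and those comparisons share no library with heat against control. They called 59.1%, 61% and 59.9% of genes, respectively (30.6%, 30.9% and 30.5% higher, and 28.5%, 30.1% and 29.4% lower). Of the 2094 genes at least 2-fold higher in unwatered plants, 1864, 1818 and 1846 were called higher there, and 1685 (80.5%) in all 3. Of the 1578 at least 2-fold lower, 1322, 1368 and 1349 were called lower, and 1166 (73.9%) in all 3. Among all genes called, 26, 128 and 94 were called in the opposite direction.

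Of all 6346 genes called higher, 4157 (65.5%) were called higher in all 3 watering regimes, and of all 6185 called lower 3641 (58.9%) were called lower in all 3. All 15 small heat shock proteins that rose were called higher again in all 3, as were 196 of the 242 pentatricopeptide repeat genes and 52 of the 60 mitochondrion-encoded genes. Ribosome biogenesis was near the share over all genes called higher, with 35 of 55. Of the genes that fell, 20 of 21 in flavonoid synthesis and 33 of 38 histones were called lower in all 3. So were 29 of 29 in the proteasome and 22 of 24 in the second-level TCA class. Among the genes lower in heat, the jasmonate list had 3 of 14 called again in all 3, the cytokinin list 6 of 15 and the expansins 0 of 9, and among those higher the dehydration list had 6 of 15. None of these shares was tested against the others. LTP4 rose by 7.38 in unwatered plants and had log2 fold changes of 2.23, 3.58 and 2.85 after salt, mannitol and both, and PR1 fell by 2.61 against log2 fold changes of -1.13, -0.44 and -0.24. FER1 rose by 2.46 in unwatered plants, with log2 fold changes of -0.02, -0.85 and 1.09 in the others. Whether the heat effect differed between watering regimes was not tested for these genes.

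**Figure D5:**
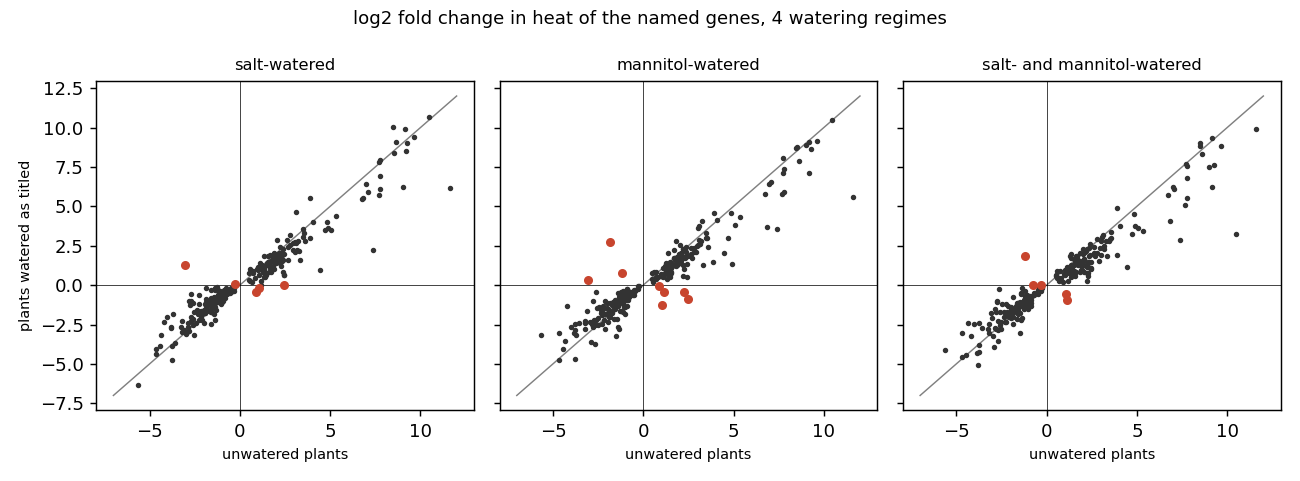
log2 fold change in heat of the 262 named genes in unwatered plants (x axis) against that in plants watered with salt, mannitol or both (y axis). The grey line marks equal changes. Red points have opposite signs, 5, 8 and 5 genes in the 3 panels.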

How the data were processed

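RNA of rosettes was sequenced from 24 libraries in 8 groups, as paired reads of 100 bp from TruSeq RNA libraries, per the labels' protocols. That kit selects poly(A) RNA and does not mark strand. Reads were quantified with kallisto 0.45.1, and sleuth 0.30.0 and CASAVA are named beside it, per the submitters' processing notes. The annotation is Araport 11 per the file headers, and the genome build is not given in the sources used here. The deposited table holds 27655 genes. Its estimated count columns, as deposited, were whole reads times 1 constant per library for 94.9 to 95.2% of values in the 6 control and heat libraries (tolerance 0.01), so the constant was divided out and the values were rounded. Its TPM columns are a length-scaled signal that the authors had rescaled per library before they were deposited, and they were used for levels only.

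The counts of all 24 libraries were fitted in 1 model with edgeR 4.0.16 (R 4.3.3, limma 3.58.1), with TMM factors, its default filter on low counts and the robust quasi-likelihood test, Benjamini-Hochberg adjusted over 20027 genes. A call is an adjusted p under 0.05. Alternatives were DESeq2 1.42.0, other scaling, no filter, fits to 2 groups, a term for the replicate number, and dropping 1 library at a time. Feeding in the estimated counts without dividing out the constant was added after seeing the data.

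Members and lists were chosen with earlier results of these data known. Of the lists, 54 were used, 8 were replaced by deposited classes and 31 genes matched by a wrong symbol were dropped. Named genes were the 10 largest rises and falls (mean TPM of at least 5, groups separate, call kept without each library), the 10 largest gains and losses in TPM, up to 4 called members per list (mean TPM of at least 1), and the largest rise and fall per top-level class. Symbols and promoters came from RefSeq, assembly TAIR10.1, with 27445 identifiers matched. Genes that overlap, or lie antisense to each other, cannot be told apart in these counts.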

Additional observations from a re-analysis of the deposited data

Results flagged for a closer look

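In 5 named genes the 3 heat libraries of unwatered plants lay on one side of their controls, and in at least 1 of the 3 watering regimes, named for each gene, the heated libraries lay on the other side of theirs. The difference between watering regimes was not tested for any of them.

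DIC2, a mitochondrial dicarboxylate carrier, had a log2 fold change in heat of -1.19 in unwatered plants and of 1.87 after salt and mannitol together, where it was called. BRU6 (GH3.2), an auxin-conjugating enzyme, stood at 0.89 in unwatered plants and at -0.45 after salt, where it was not called. Its call in unwatered plants was lost without control replicate 2 (adjusted p = 0.095) or heat replicate 2 (adjusted p = 0.186). WRKY53, a senescence-related transcription factor, stood at 1.05 in unwatered plants, at -1.28 after mannitol, where it was called, and at -0.58 after both, where it was not. The WRKY53 call in unwatered plants was lost without each control library, without heat replicate 2 and with the replicate block. AT2G28210, annotated as an alpha carbonic anhydrase, stood at 1.15 in unwatered plants and at -0.93 after both, where it was called. FER3, a ferritin, stood at 2.27 in unwatered plants, where heat replicate 2 was the highest, and at -0.41 after mannitol, where it was not called.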

How the results depend on the processing

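The 12531 genes called between heat and control became 12204 with DESeq2, 12548 with RLE factors, 12423 with library totals, 12521 without a filter, 11315 with only the 2 groups in the fit, and 12434 on the estimated counts as deposited. Leaving out 1 library gave 11632 to 12024. A threshold of at least 2-fold left 3672 genes, and 3103 after salt, 3323 after mannitol and 3300 after both, where leaving out 1 library gave 10741 to 11183, 11319 to 11548 and 10935 to 11272 calls. Top-level classes with more genes higher than lower numbered 9 to 11 without 1 library, called list members 801 to 859 and called named genes 256 to 261.

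Replicate numbers did not pair the libraries: deviations of same-numbered heat and control libraries correlated at -0.185, -0.0421 and 0.293. With the replicate block 12484 genes were called, against 11813, 12174 and 11956 in the other watering regimes.

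Of 262 named genes 8 lost their call under at least 1 of DESeq2, library totals, the block and leaving out a library, and none reversed: BRU6, ELF4, IAA30, PDF1.2, SHR, TCH3, WRKY53 and bHLH39. The rule for named genes took list members only if called, and the largest rises and falls only if the call held without each library. The number lost, and the range of called named genes without 1 library, were therefore partly fixed by selection. Outside that rule, BZIP60, CBF1, GOX1, IRE1-1 and RBCS2B lost their call. Leaving out 1 library lowered the number of genes called in each comparison. With only the 2 groups in the fit, calls fell in unwatered plants and after mannitol (12221 to 10697). They rose after salt (11840 to 11912) and after both (11993 to 12305). The cause of the lost calls was not tested. Counting depth limits genes with few control reads, such as most mitochondrion-encoded ones.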
